A study of Mus musculus with 6 samples.

Results

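Interferon-stimulated genes are the genes that a cell switches on after an interferon binds its receptor. A list of 46 such mouse genes was followed here in chemically induced skin tumours, by taking the array probes whose gene name is on the list. Of the 46, 45 were matched to a probe, and 38 gave a signal well above background in all 3 tumours of 1 or both genotype labels, out of 19742 genes and other named features measured the same way. The RNA came from 6 skin tumours of male mice, of which 3 carry the label P2ry6+/+ (wild-type) and 3 the label P2ry6-/- (knockout). The P2ry6 product is a receptor that senses extracellular UDP. All groups shared the same two-stage carcinogenesis, in which the shaved back received the mutagen DMBA once (195 nmol in 200 uL of acetone) and then the tumour promoter TPA (16 nmol, 2 times a week) until week 22, in 12 mice of each genotype. Strain, age, the form of the knockout allele and whether each tumour came from a separate mouse are not given in the sources used here, so p-values measure only the spread between these samples, which may be partly technical. Each RNA was hybridised to a one-colour Agilent array, and every level below is the log2 signal of a probe minus the 75th percentile of its own array, so a difference of 1 is a 2-fold difference. Levels of different probes cannot be set against each other.

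Type I interferons (the alpha and beta family), type II interferon (gamma) and type III interferons (lambda) each bind their own receptor and act through Janus kinases on transcription factors of the STAT family. A complex that holds STAT2 and IRF9 binds a DNA element called the interferon-stimulated response element (ISRE), whereas the signal of interferon gamma acts mainly through the gamma-activated site (GAS). The products block viral replication, sense foreign nucleic acid, mark proteins with ubiquitin-like tags, or, in the case of the guanylate-binding proteins and immunity-related GTPases, attack the membranes around intracellular pathogens. In skin both keratinocytes and infiltrating leukocytes can respond.

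The promoters of these genes are shown first, because the antiviral and GTPase groups compared below are classically tied to these elements. RefSeq promoter windows (GRCm38.p6), from 250 bases before to 50 bases after the start site, were found for 33 of the 46 genes. They were searched on both strands for the ISRE written as GAAANNGAAA and the GAS written as TTCNNNGAA, which reads the same on both strands; the patterns may overlap each other. The ISRE letters were found for 18 of the 33 genes (54.5%), against 3.99% of all 27025 genes with a window and 3.44% of all windows of this length. The GAS letters were found for 12 of the 33 (36.4%), against 9.55% of all genes and 8.3% of all windows. By role, the ISRE letters were found for 3 of 4 antiviral genes and 8 of 9 GTPase genes, and the GAS letters for 1 of 4 and 5 of 9. These are not the same genes as those measured below. Mx1, Mx2, Gbp4 and Iigp1 were measured but had no window. Ifit1, Ifit2, Gbp7 and Tgtp1 had a window but were not measured. The stretch from position -160 to position -21 relative to the start site is printed 5′ to 3′ on the gene's own strand for 6 genes that stand for the groups, with the matched letters in capitals. They are Isg15 (chr4:156200839-156200978, minus strand), Ifit3 (chr19:34583369-34583508, plus), Gbp2 (chr3:142620503-142620642, plus), Igtp (chr11:58199396-58199535, plus), Irgm2 (chr11:58214817-58214956, plus) and Irf1 (chr11:53769854-53769993, plus).
Isg15: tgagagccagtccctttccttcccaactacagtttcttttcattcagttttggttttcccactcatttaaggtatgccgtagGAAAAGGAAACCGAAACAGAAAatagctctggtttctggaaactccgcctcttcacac
Ifit3: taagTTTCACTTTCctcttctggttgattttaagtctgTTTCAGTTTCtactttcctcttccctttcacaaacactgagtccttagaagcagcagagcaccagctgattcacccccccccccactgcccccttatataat
Gbp2: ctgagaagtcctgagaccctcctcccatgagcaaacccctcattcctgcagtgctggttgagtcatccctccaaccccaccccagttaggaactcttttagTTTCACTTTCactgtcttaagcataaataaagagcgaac
Igtp: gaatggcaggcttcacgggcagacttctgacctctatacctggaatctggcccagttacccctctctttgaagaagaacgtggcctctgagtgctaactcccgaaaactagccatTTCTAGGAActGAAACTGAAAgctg
Irgm2: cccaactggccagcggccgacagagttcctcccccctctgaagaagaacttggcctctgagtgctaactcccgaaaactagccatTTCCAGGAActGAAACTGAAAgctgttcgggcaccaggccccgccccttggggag
Irf1: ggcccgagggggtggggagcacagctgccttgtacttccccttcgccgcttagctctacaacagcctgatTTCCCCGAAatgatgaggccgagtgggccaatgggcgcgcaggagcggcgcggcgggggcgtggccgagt

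The Isg15 window holds 3 overlapping ISRE matches with first bases at -78, -72 and -66, counted with the start site as 0. Ifit3 has 2 on the opposite strand, at -156 and -122, and Gbp2 has 1 at -59. Irf1 has no ISRE match in this window and a GAS match at -90. In Igtp and Irgm2 a GAS match is followed by an ISRE match whose first base lies 11 bases further on, at -45 and -34 in Igtp and at -75 and -64 in Irgm2. Both elements occur together in a window of 146 genes, and they lie 11 bases apart in that order in 5, of which 3 are on the list (Igtp, Irgm2 and Tgtp1, with Tgtp1 at -88 and -77). The distance searched for was the one found in Igtp and Irgm2, so genes of the list were bound to be among the 5. The Igtp and Irgm2 windows share an identical run of 61 bases, and 89 of 105 bases around the elements are identical, so the windows are related copies and not separate instances. A match describes letters in this window and is no evidence of binding.

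The signal of the targeted gene did not read lower under the knockout label. Both P2ry6 probes exceeded background clearly in each of the 6 tumours. The brighter had log2 signals of 0.38, 0.33 and -0.21 in labelled wild-type tumours 1, 2 and 3 and of 0.57, 0.70 and 0.45 in labelled knockout tumours 1, 2 and 3, a difference of 0.41 (SE 0.20, limma adjusted p = 0.450). Whether these probes lie inside the deleted part of the gene is not given, so they may check nothing, and "labelled" is kept with each genotype name throughout. The 75th percentile of the raw signal ranged from 322 to 368 over arrays labelled wild-type and from 277 to 299.6 over arrays labelled knockout, and no spot was saturated. All 6 arrays lay on 1 slide. One of the position numbers on that slide was 1, 1 and 2 for the labelled wild-type arrays and 2, 3 and 3 for the labelled knockout arrays, so it followed the genotype label in part, with labelled wild-type tumour 3 and labelled knockout tumour 1 sharing position 2. The other number was 2, 1 and 2 and 1, 1 and 2. The labelled wild-type tumours carried more signal of skeletal muscle, fat, hair follicle and sebaceous gland, to an uneven degree. The summed linear level of 5 muscle markers, in multiples of the 75th percentile, was 5.40 to 96.9 there against 0.546 to 0.993, that of the fat markers 2.79 to 14.0 against 0.440 to 0.599, that of the hair markers 5.95 to 273 against 2.09 to 5.58, and that of the sebaceous markers 6.63 to 95.6 against 2.22 to 4.09, in each list highest in labelled wild-type tumour 2. Lep, on the fat list, went the other way (difference 0.37), and Plin1 was not well above background. The hair sums of labelled wild-type tumour 3 (5.95) and labelled knockout tumour 2 (5.58) were close. Krt27, Krt35 and Tchh overlapped between the labels. The part of this difference in tissue makeup in the results below was not tested. In bulk tumour RNA, fewer cells of a type and less RNA per cell cannot be told apart.

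The interferon-stimulated genes read mostly higher in the tumours labelled knockout, by modest amounts, and no single gene passed the test over all features. Of the 38 measured genes 32 had a higher mean there and 6 a lower one, that is 84.2% higher against 52.1% of all features. The median log2 difference was 0.69, against 0.016 over all features. It was 0.46 without labelled knockout tumour 1, 0.47 with the other position number as a block and 0.475 with normexp, another background correction. The differences ran from -0.52 (Ifi204) to 1.37 (Mx2). Genes that read at least 2-fold higher were Mx1, Mx2, Isg15 and Rtp4, 4 of 38 (10.5%, against 2.53% of all features). Of these, Isg15 and Mx2 remained past 2-fold without labelled knockout tumour 1 and only Isg15 did with normexp.

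With limma and Benjamini-Hochberg adjustment over the 19742 features, 0 of the 38 passed an adjusted p of 0.05 in either direction, where 0.0507% of all features were higher and 0.111% lower. The lowest adjusted p of a listed gene was 0.141. At an unadjusted p under 0.05, 17 were higher and 0 lower, against 7.86% of all features higher and 5.37% lower. In 17 genes every labelled knockout tumour lay above every labelled wild-type tumour, against 12.1% of all features, and in 0 genes every one lay below, against 7.37%. With 3 tumours against 3 the exact two-sided permutation test cannot go below p = 0.1, the value these 17 genes reach. Mx1, Igtp and Dhx58 had an unadjusted p under 0.05 with overlapping groups, and Stat2, Bst2 and Ifi35 had no overlap but a larger p. The 17 with unadjusted p under 0.05 became 9 without labelled wild-type tumour 1, 11 without labelled wild-type tumour 3 and 9 without labelled knockout tumour 1. Of the 38, 36 were well above background on all 6 arrays; Mx1 and Mx2 passed the filter only through the labelled knockout arrays, so their presence among the measured genes favours that direction.

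**Figure D1:**
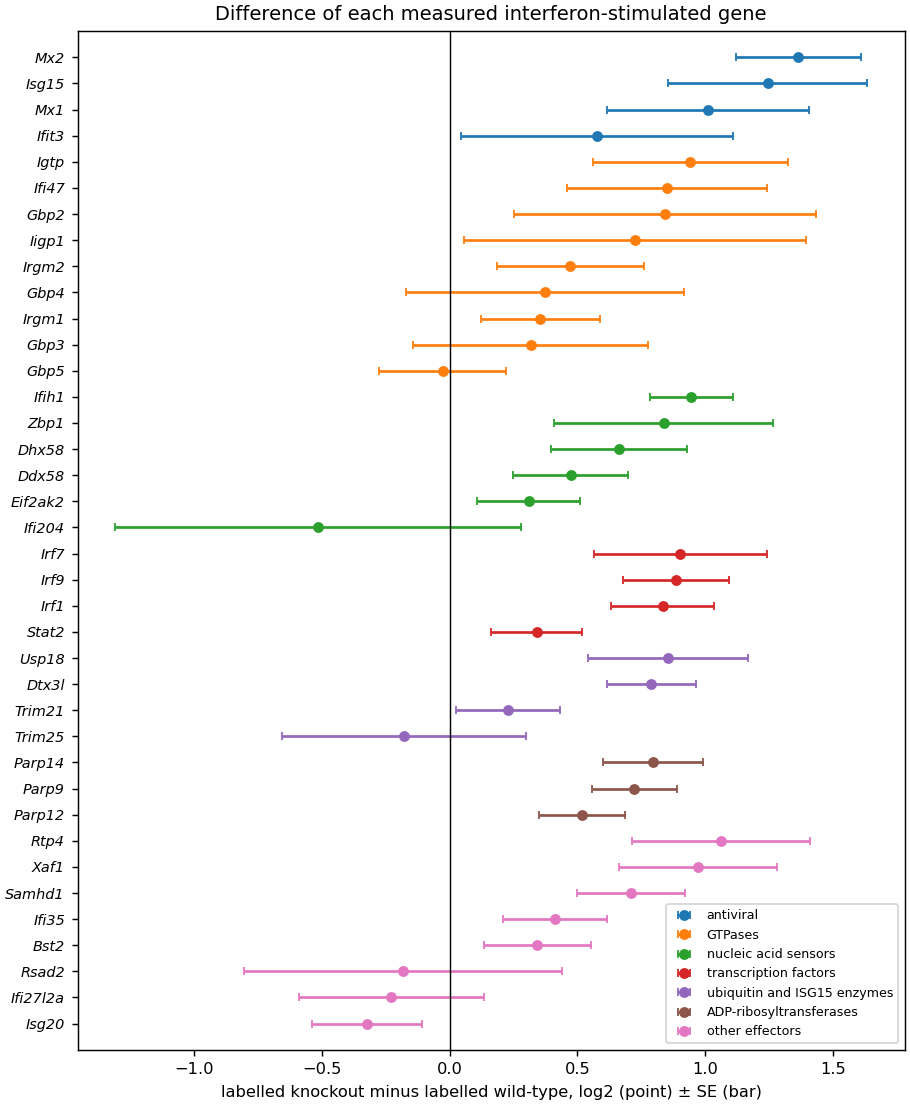
Log2 difference of each of the 38 measured interferon-stimulated genes, labelled knockout minus labelled wild-type (x axis; point, estimate; bar, SE; 3 tumours against 3), grouped by role in colour. Most points lie right of 0, Mx2 at 1.37 and Isg15 at 1.25 farthest, while 6 genes lie left of it, Ifi204 with the widest bar.

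Among the antiviral genes, Isg15 and the Mx genes read 2-fold or more higher in the tumours labelled knockout, and Ifit3 did so in 1 tumour only. The group holds 6 genes, of which Ifit1 and Ifit2 were not well above background on all arrays of a genotype (Ifit1 on 2 of 3 labelled wild-type and 2 of 3 labelled knockout arrays, Ifit2 on 0 and 1). All 4 that were measured had positive differences, with a median of 1.13. Of these, Mx1 and Mx2 passed the filter only through the labelled knockout arrays, which favours that direction. The median was 0.51 with normexp background correction and 0.85 without labelled knockout tumour 1. It was 0.91 when a probe had to exceed background on each array, which left only Isg15 and Ifit3.

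Isg15 encodes a ubiquitin-like protein that is attached to other proteins during the antiviral response, and its probe lies on chromosome 4 from 155573649 to 155573708 (mm9). Its log2 level was 0.96, 1.52 and 1.43 in labelled wild-type tumours 1, 2 and 3, and 2.99, 1.67 and 3.00 in labelled knockout tumours 1, 2 and 3. The groups did not overlap, but labelled knockout tumour 2 lay only just above the labelled wild-type tumours. The difference was 1.25 (SE 0.39), or 2.37-fold, with a limma adjusted p of 0.285. Its unadjusted p exceeded 0.05 without labelled wild-type tumour 1, labelled knockout tumour 1 or labelled knockout tumour 3.

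Mx1 and Mx2 encode dynamin-like GTPases that trap viral components, and lie side by side on chromosome 16 (probes at 97668644 to 97668703 and at 97782327 to 97782386). Mx2 was at -3.90, -4.20 and -4.30 in the labelled wild-type tumours and at -2.31, -3.10 and -2.91 in the labelled knockout tumours. Every labelled knockout tumour was higher, and only 1 of the 3 labelled wild-type arrays was well above background. The difference was 1.37 (SE 0.24; limma adjusted p = 0.146), and 0.55 with normexp. Mx1 was at -3.11, -4.08 and -3.96 against -2.03, -3.32 and -2.77, a difference of 1.01 (SE 0.40; limma adjusted p = 0.356). Here labelled wild-type tumour 1 lay above labelled knockout tumour 2, so the groups overlapped, and the difference was 0.48 with normexp, 0.66 with array weights and 0.67 without labelled knockout tumour 1.

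Ifit3, which with its relatives binds viral RNA and forms antiviral complexes, was at -2.07, -2.30 and -2.43 in the labelled wild-type tumours and at -0.43, -2.64 and -2.00 in the labelled knockout tumours. Labelled knockout tumour 1 stood far above the rest and tumour 2 was the lowest of all 6. The difference of 0.58 (SE 0.53; limma adjusted p = 0.695) was -0.055 without labelled knockout tumour 1 and 1.05 without labelled knockout tumour 2.

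The interferon-inducible GTPases read higher on average in the tumours labelled knockout, but labelled wild-type tumour 2 was also high, and no gene of the group separated the genotype labels. Of 12 listed genes 9 were measured: 8 had positive differences and Gbp5 a negative one, with a median of 0.47. In 0 of the 9 did every labelled knockout tumour lie above every labelled wild-type tumour, against 12.1% of all features. Only Igtp was higher at an unadjusted p under 0.05, against 7.86% of all features. With 9 genes, such counts are near those shares. Gbp6 and Gbp7 were well above background on 1 and 1, and on 1 and 2, of the 3 arrays of each label. No probe carries the name Tgtp1. The group's median depended on single tumours: it was 0.13 without labelled knockout tumour 1, 0.83 without labelled wild-type tumour 2, 0.85 without labelled knockout tumour 3 and 0.25 with the other position number as a block. Members of both families are close paralogs clustered in the genome, and cross-hybridisation between them was not tested.

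Of the guanylate-binding protein genes, Gbp2 (probe on chromosome 3, 142300719 to 142300778) was at -1.52, 0.015 and -1.63 in labelled wild-type tumours 1, 2 and 3 and at 0.74, -0.31 and -1.05 in labelled knockout tumours 1, 2 and 3. Labelled wild-type tumour 2 exceeded all but labelled knockout tumour 1. The difference was 0.84 (SE 0.59; limma adjusted p = 0.592), 1.37 without labelled wild-type tumour 2, 1.26 without labelled knockout tumour 3, 0.55 without labelled wild-type tumour 3 and 0.37 without labelled knockout tumour 1. Gbp4 had the same arrangement, with -3.07, -1.65 and -2.99 against -1.44, -2.00 and -3.15. Its difference of 0.37 (SE 0.54; limma adjusted p = 0.813) was -0.0056 without labelled knockout tumour 1 and -0.096 with the other position number as a block. Gbp3 stood out only in labelled knockout tumour 1, with -2.00, -1.62 and -2.04 against -0.47, -2.02 and -2.22. The difference of 0.32 (SE 0.46; limma adjusted p = 0.813) became -0.24 without that tumour. Gbp5, which also promotes inflammasome assembly, was at 0.70, 0.051 and 0.88 against 0.61, 0.29 and 0.64. It alone of the 9 had a negative difference, -0.029 (SE 0.25; limma adjusted p = 0.974), and its second probe read 0.47 higher in the labelled knockout tumours, so the probes disagree in sign. The difference was also positive without labelled wild-type tumour 1 (0.049) or 3 (0.14) and without labelled knockout tumour 2 (0.082).

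All 5 of the measured immunity-related GTPases had positive differences, with a median of 0.73, where the 4 Gbp genes had 0.34. Without labelled knockout tumour 1 these medians were 0.34 and -0.040, and whether the families differ was not tested. Igtp (Irgm3), which acts on vacuole membranes, was at -1.19, -0.13 and -1.15 in the labelled wild-type tumours and at 0.59, 0.22 and -0.46 in the labelled knockout tumours, differing by 0.94 (SE 0.38; limma adjusted p = 0.368). Labelled knockout tumour 3 lay below labelled wild-type tumour 2. Its unadjusted p exceeded 0.05 when labelled wild-type tumour 1 or 3 or labelled knockout tumour 1 or 2 was left out, and the difference was 0.63 with the other position number as a block. Ifi47 was at -0.91, -0.34 and -1.38 against 0.71, -0.31 and -0.48, a difference of 0.85 (SE 0.39; limma adjusted p = 0.418) that became 0.48 without labelled knockout tumour 1. Labelled knockout tumour 1 was again the highest of the 6.

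Iigp1, an effector that is loaded onto parasite vacuoles, was at -1.78, -0.69 and -1.82 against 0.70, -0.88 and -1.92. Its labelled knockout tumours held both the highest and the lowest value of the 6. The difference of 0.73 (SE 0.67; limma adjusted p = 0.694) was 0.026 without labelled knockout tumour 1 and was 1.34 without labelled knockout tumour 3. Irgm2, a regulatory member, was at -1.41, -0.95 and -1.68 against -0.60, -0.64 and -1.38 (difference 0.47, SE 0.29, limma adjusted p = 0.537; 0.73 without labelled knockout tumour 3 and 0.31 without labelled wild-type tumour 3). Irgm1, another regulator, was at -0.70, -0.54 and -0.35 against 0.28, -0.44 and -0.37 (difference 0.35, SE 0.23, limma adjusted p = 0.567; 0.13 without labelled knockout tumour 1). A probe named Tgtp2, whose listed accessions name Tgtp1 as well, gave -1.08, -0.36 and -0.98 against 0.98, -0.43 and -1.56, with a difference of 0.47 (SE 0.61; limma adjusted p = 0.785) and the same arrangement as Iigp1.

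Set against each other, the antiviral median exceeded the GTPase median by 0.66, a contrast not far above the spread between tumours of a label (pooled SD over arrays 0.53). The contrast was 0.25 without labelled wild-type tumour 2, 0.18 without labelled knockout tumour 3, 0.18 with normexp, 0.26 with no filter on dim probes and 0.44 when a probe had to exceed background on each array. What differed was which tumours were high. With each gene centred on its mean over the 6 arrays, the antiviral level was -0.35, -0.59 and -0.64 in labelled wild-type tumours 1, 2 and 3 and 1.23, -0.17 and 0.51 in labelled knockout tumours 1, 2 and 3. The GTPase level was -0.48, 0.19 and -0.51, and 0.96, 0.16 and -0.32. Labelled knockout tumour 1 was high for both groups. Labelled knockout tumour 3 lay above every labelled wild-type tumour in 4 of 4 antiviral genes and in 0 of 9 GTPase genes, against 26.6% of all features. Of those 4, Mx1 and Mx2 passed the filter only through the labelled knockout arrays, and Ifit3 lay above by little (-2.00 against -2.07). Labelled wild-type tumour 2 was the highest of its label in 7 of 9 GTPase genes and in 1 of 4 antiviral genes, against 30.9% of all features. Neither feature was particular to its group. Labelled knockout tumour 3 also lay above in 5 of 6 sensors, 4 of 4 transcription factors and 3 of 3 ADP-ribosyltransferases. Labelled wild-type tumour 2 was also highest of its label in 4 of 4 transcription factors and 3 of 3 ADP-ribosyltransferases. It was so in 0 of 4 ubiquitin and ISG15 enzyme genes. The difference in arrangement between the antiviral and GTPase groups was not tested.

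**Figure D2:**
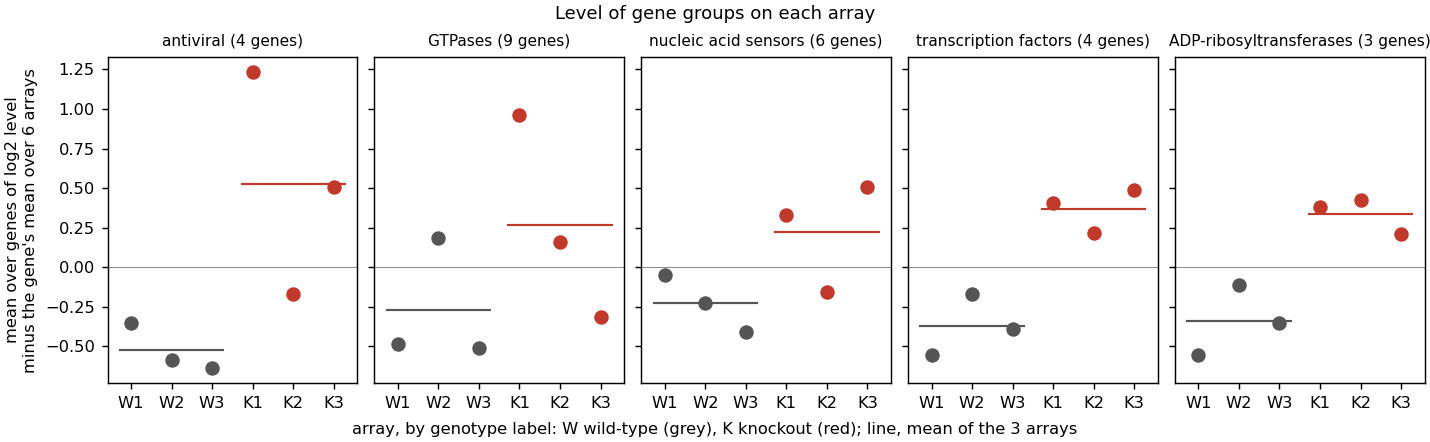
Mean centred log2 level of 5 role groups (y axis) in each tumour (x axis; W, labelled wild-type; K, labelled knockout; line, mean of the 3 tumours). Tumour K3 is at 0.51 for the antiviral genes and at -0.32 for the GTPases, and W2 at -0.59 and 0.19, and the labels overlap for the GTPases and the sensors but not for the antiviral genes, the transcription factors or the ADP-ribosyltransferases.

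T-cell markers shared part of the GTPases' arrangement, but so did markers of other tissues. The summed linear level of Cd3d, Cd3e, Cd3g, Cd2 and Lck was 2.52, 3.45 and 2.47 in labelled wild-type tumours 1, 2 and 3 and 3.24, 4.01 and 2.71 in labelled knockout tumours 1, 2 and 3. Labelled knockout tumour 3 was the lowest of its label in 5 of 5 of these markers and in 7 of 9 GTPase genes, against 31.9% of all features. Labelled wild-type tumour 2 was the highest of its label in 4 of 5 markers. Both held in 5 of 5 fibroblast and 5 of 5 sebaceous markers too, and in 3 of 3 and 2 of 3 endothelial ones. Labelled knockout tumour 1, the highest of the 6 in 8 of 9 GTPase genes (16.6% of all features), was highest in 0 of the 5 T-cell markers, where tumour 2 was highest in 4. The gene for interferon gamma, which T cells make, was not well above background. The part of T cells or of these tissues in the GTPase values was not tested.

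Sensors of foreign or misplaced nucleic acid were led by Ifih1, the most clearly separated gene of the whole list by its limma p. Of 6 measured sensors 5 had positive differences, against 52.1% of all features, and the median was 0.57. Ifih1 and Dhx58 were higher at an unadjusted p under 0.05, against 7.86% of all features. Ifih1 encodes MDA5, a cytosolic sensor of long double-stranded RNA, and its probe lies on chromosome 2 from 62435621 to 62435680. It was at -1.99, -1.70 and -1.79 in the labelled wild-type tumours and at -1.02, -0.90 and -0.71 in the labelled knockout tumours, with a clear gap between them. The difference was 0.95 (SE 0.16; limma adjusted p = 0.141). Dhx58 encodes LGP2, which modulates MDA5 and RIG-I. It was at -2.53, -2.21 and -1.78 against -1.34, -1.92 and -1.27, a difference of 0.66 (SE 0.27; limma adjusted p = 0.366). Labelled knockout tumour 2 lay below labelled wild-type tumour 3. Its unadjusted p, under 0.05 in the fit of all tumours, exceeded 0.05 in 9 of 18 alternatives, among them without labelled wild-type tumour 1 or 2 and without labelled knockout tumour 1 or 3.

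Ddx58, which encodes RIG-I, Zbp1, a sensor of Z-form nucleic acid, and Eif2ak2, which encodes the kinase PKR, had positive differences of 0.47, 0.84 and 0.31, with limma adjusted p values of 0.429, 0.463 and 0.562. Eif2ak2 differed by 0.16 without labelled knockout tumour 1, and Zbp1 by 0.46 without labelled wild-type tumour 3 and by 0.51 without labelled knockout tumour 1. Ifi204, of a family of DNA-binding proteins, went the other way, with 4.36, 1.85 and 2.02 against 1.71, 1.54 and 3.43. A single tumour of each label was high, labelled wild-type tumour 1 and labelled knockout tumour 3. The difference of -0.52 (SE 0.79; limma adjusted p = 0.823) turned to 0.29 without labelled wild-type tumour 1 and was -1.12 without labelled knockout tumour 3.

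The transcription factors of the response separated the genotype labels in every gene, but Irf7 and Stat2 did so only by little. For all 4 of them, Irf1, Irf7, Irf9 and Stat2, each labelled knockout tumour lay above each labelled wild-type tumour, against 12.1% of all features. The median difference was 0.86. STAT2 and IRF9 act together at the ISRE, IRF1 is induced quickly by interferon gamma, and IRF7 amplifies production of type I interferon. Irf1 (chromosome 11, 53590746 to 53590805) was at 1.50, 1.83 and 1.48 in the labelled wild-type tumours and at 2.11, 2.60 and 2.60 in the labelled knockout tumours, differing by 0.83 (SE 0.20; limma adjusted p = 0.213). Irf9 (chromosome 14, 56228806 to 56228865) was at 1.28, 1.84 and 1.60 against 2.20, 2.58 and 2.61, a difference of 0.89 (SE 0.21; limma adjusted p = 0.205), and its second probe differed by 0.92. In both genes labelled knockout tumours 2 and 3 were the higher ones. Irf7 had another arrangement: it was at 1.13, 1.33 and 1.16 against 2.66, 1.34 and 2.34. Labelled knockout tumour 2 lay level with the labelled wild-type tumours, as it did for Isg15. The difference was 0.90 (SE 0.34; limma adjusted p = 0.342), with an unadjusted p over 0.05 when any tumour other than labelled knockout tumour 2 was left out. Stat2 differed by 0.34 (SE 0.18; limma adjusted p = 0.475), and by 0.21 without labelled wild-type tumour 1. Its level in labelled knockout tumour 2 (1.21) was just above that in labelled wild-type tumour 2 (1.16).

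**Figure D3:**
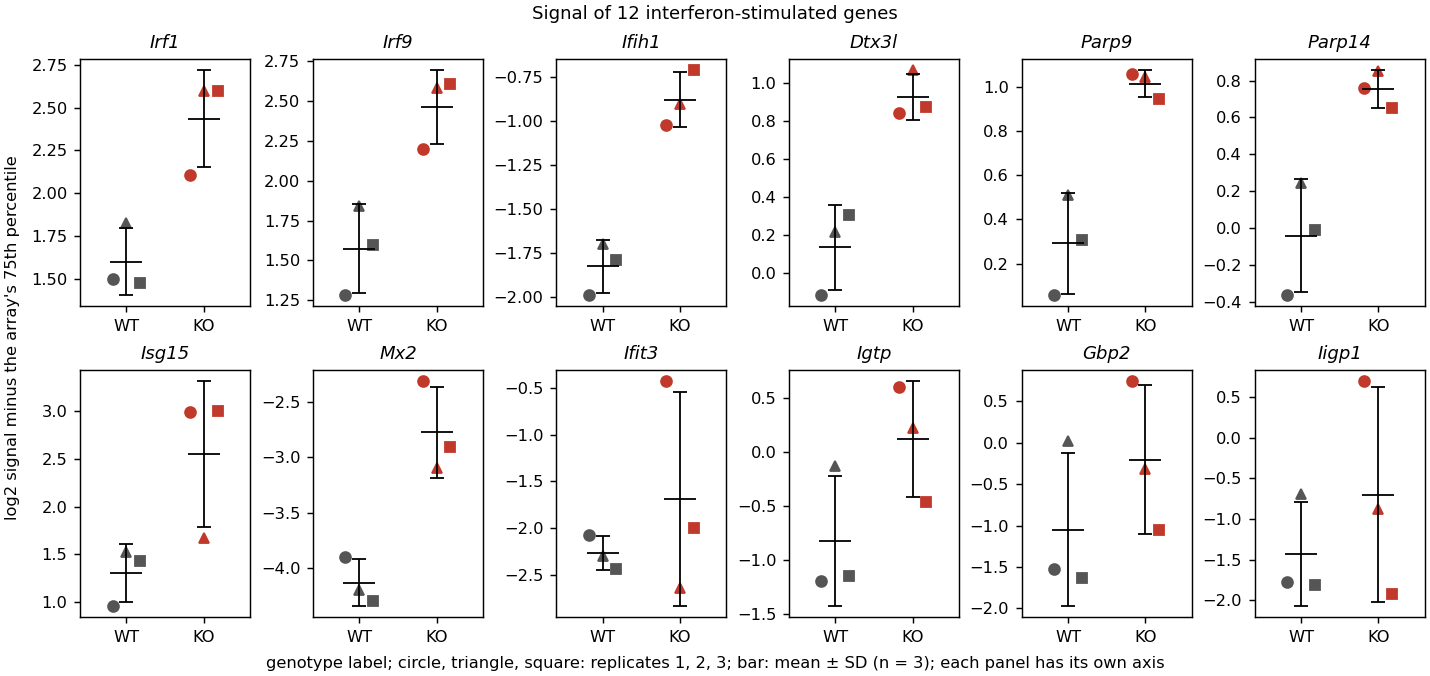
Log2 signal minus the array's 75th percentile (y axis, its own range in each panel) for 12 of the genes by genotype label (x axis), with each tumour as a symbol and the mean ± SD of 3. Irf1, Irf9, Ifih1, Dtx3l, Parp9, Parp14, Isg15 and Mx2 do not overlap between labels, while Ifit3, Igtp, Gbp2 and Iigp1 do.

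Genes for ADP-ribosyltransferases and the ubiquitin ligase Dtx3l differed with little spread among tumours. Dtx3l and Parp9 encode partners of a single complex, share a stretch of chromosome 16 and are neighbours of Parp14. Parp9 (35972577 to 35972636) was at 0.057, 0.51 and 0.31 in the labelled wild-type tumours and at 1.06, 1.04 and 0.95 in the labelled knockout tumours. Dtx3l (35926655 to 35926714) was at -0.12, 0.22 and 0.31 against 0.84, 1.06 and 0.87. Parp14 (35832992 to 35833051) was at -0.36, 0.25 and -0.0082 against 0.76, 0.85 and 0.65. For these genes all labelled knockout tumours lay close together and above all labelled wild-type tumours. The differences were 0.72 (SE 0.17), 0.79 (SE 0.17) and 0.80 (SE 0.19), with limma adjusted p values of 0.205, 0.201 and 0.218, and the second probe of Parp14 differed by 1.11. That of Dtx3l, well above background on 2 of 3 labelled wild-type arrays, differed by 1.08. Parp12, which is recruited to stress granules, was at -1.92, -1.66 and -1.91 against -1.24, -1.17 and -1.53, a difference of 0.52 (SE 0.17; limma adjusted p = 0.297). Its unadjusted p exceeded 0.05 without labelled wild-type tumour 1 or 3 or labelled knockout tumour 1 or 2. All 3 listed ADP-ribosyltransferase genes had no overlap, against 12.1% of all features, and their median was 0.72.

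Of the 4 measured ubiquitin and ISG15 enzyme genes, Dtx3l and Usp18 lay higher with no overlap between the labels, against 12.1% of all features. Usp18 encodes the protease that removes ISG15 and also dampens the type I receptor. It was at -2.32, -2.10 and -2.02 against -0.94, -2.01 and -0.92, a difference of 0.86 (SE 0.31; limma adjusted p = 0.335). Labelled knockout tumour 2 was again level with the labelled wild-type tumours, and the unadjusted p exceeded 0.05 when any other tumour was left out. Trim21, a cytosolic antibody receptor and ubiquitin ligase, differed by 0.23 (limma adjusted p = 0.683), and by 0.052 without labelled wild-type tumour 2. Trim25, the ligase known for activating RIG-I, was at 7.60, 5.85 and 7.41 against 6.47, 6.70 and 7.16. The lowest value was labelled wild-type tumour 2. Its difference of -0.18 (SE 0.48; limma adjusted p = 0.903) turned to 0.15 without labelled wild-type tumour 1 and to 0.049 without labelled wild-type tumour 3, and was -0.73 without labelled wild-type tumour 2. The other Trim25 probes differed by 0.76 and 0.25, so its direction depends on the probe. Herc6, the main ISG15 ligase of mice, did not rise clearly above background in any tumour.

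Of the other effectors, 5 read higher, led by Rtp4, Xaf1 and Samhd1, and 3 read lower, none past the adjusted test. All 5 positive differences among the 8 measured genes were without overlap between the labels, against 12.1% of all features. The median of the 8 was 0.38. Rtp4, a chaperone of receptor trafficking that is strongly induced by interferon, was at -0.68, -0.054 and -0.74 in the labelled wild-type tumours and at 1.21, -0.016 and 0.52 in the labelled knockout tumours. Its difference was 1.06 (SE 0.35; limma adjusted p = 0.297), although labelled knockout tumour 2 exceeded labelled wild-type tumour 2 by little. Xaf1, a promoter of cell death, was at -2.09, -1.42 and -1.55 against -0.15, -1.16 and -0.83, a difference of 0.97 (SE 0.31; limma adjusted p = 0.291). Samhd1, which depletes the nucleotides that viruses need, was at 3.58, 3.85 and 3.26 against 4.11, 4.17 and 4.53. Its difference was 0.71 (SE 0.21; limma adjusted p = 0.267), and for 3 further probes that exceeded background in all 6 tumours it was 1.05 to 1.57. The unadjusted p exceeded 0.05 without labelled wild-type tumour 1 for Rtp4 and Xaf1, without labelled wild-type tumour 3 or labelled knockout tumour 1 for Rtp4, and without labelled knockout tumour 3 for Samhd1. Ifi35 and Bst2, which encodes the virion-holding protein tetherin, differed by 0.41 and 0.34 (limma adjusted p = 0.445 and 0.540), and by 0.25 without labelled wild-type tumour 1 and 0.16 without labelled knockout tumour 1 respectively.

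The other effectors that read lower, Rsad2, Isg20 and Ifi27l2a, did so by little. Rsad2, which encodes the antiviral enzyme viperin, was at -2.21, -2.16 and -0.56 against -1.28, -2.97 and -1.24. Its difference of -0.18 (SE 0.62; limma adjusted p = 0.926) turned to 0.36 without labelled wild-type tumour 3 and to 0.39 without labelled knockout tumour 2. Isg20, an RNA exonuclease, was at 1.75, 1.75 and 2.06 against 1.80, 1.15 and 1.63 (difference -0.32, SE 0.21, limma adjusted p = 0.568; -0.14 without labelled knockout tumour 2). Ifi27l2a was at 1.61, 2.26 and 1.69 against 2.39, 1.22 and 1.26 (difference -0.23, SE 0.36, limma adjusted p = 0.828; -0.61 without labelled knockout tumour 1 and -0.025 without labelled wild-type tumour 2). Labelled knockout tumour 2 held the lowest value of the 6 in all 3 of these genes. Cmpk2 and Ifi44 were not well above background on all arrays of a label.

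Across the list the tumours of a label did not move as a block. Labelled knockout tumour 1 held the highest of the 6 values in 21 of 38 genes (55.3%, against 16.6% of all features), tumour 3 in 8 and tumour 2 in 4. Labelled wild-type tumour 1 held the lowest in 18 of 38 (47.4%, against 13.7%). Labelled knockout tumour 2 lay above every labelled wild-type tumour in 21 of 38 genes, tumour 3 in 23 and tumour 1 in 32, against 28.3%, 26.6% and 28.3% of all features. The levels of Irf1, Irf9, Dtx3l, Parp9 and Parp14 were about as high in labelled knockout tumour 2 as in the other two, whereas those of Isg15, Irf7, Usp18 and Ifit3 were not. Of the 17 genes with an unadjusted p under 0.05, 7 stayed there in every alternative that could be run for them, other than a linear term for position: Irf9, Irf1, Parp9, Dtx3l, Parp14, Ifih1 and Mx2. Mx2 passed the filter only through the labelled knockout arrays. It could not be run where a probe had to exceed background on each array. With the position number that follows the label in part as a linear term, an alternative chosen after seeing the data, 13 genes were higher at an unadjusted p under 0.05 (5.36% of all features), and of the 7 only Ifih1 and Mx2 stayed. Irf1 differed by 0.63 and Irf9 by 0.60 in that fit, whereas the antiviral median was 1.97 and the GTPase median 1.58, with 2.38 for Gbp2, 2.51 for Iigp1, 2.24 for Zbp1 and 2.00 for Ifit3.

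**Figure D4:**
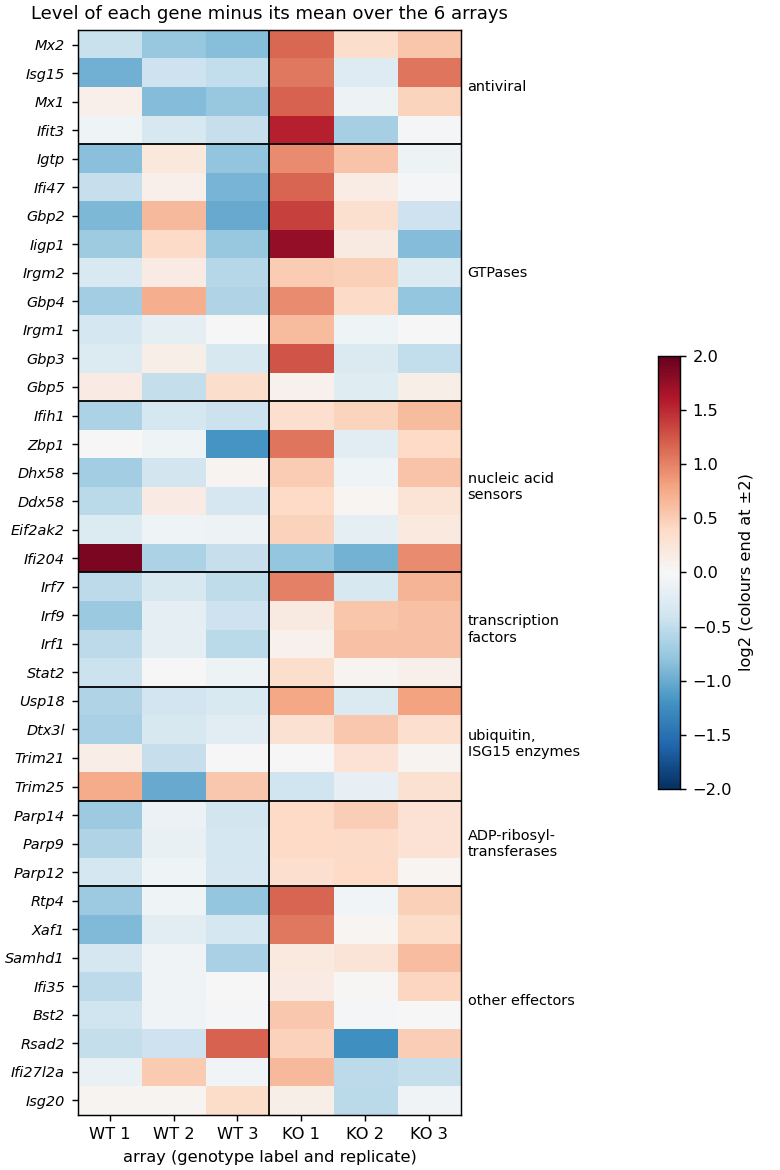
Log2 level of each measured gene minus its mean over the 6 tumours (colour, ending at ±2), with genes in rows by role and tumours in columns (WT, labelled wild-type; KO, labelled knockout). Column KO 1 is the darkest red overall and holds the highest value in 21 of 38 genes, and 7 of 9 GTPase rows are highest in WT 2 among WT and lowest in KO 3 among KO.

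Upstream of these genes, the receptor genes all had positive differences that missed the adjusted test, while the interferons themselves were mostly too dim to measure. Of a list of 33 pathway genes outside the 46, 25 were measured, 20 with positive and 5 with negative differences (52.1% of all features are positive) and a median of 0.22. At an unadjusted p under 0.05, 3 were higher and 0 lower, against 7.86% and 5.37% of all features, and 0 passed over all features by limma's adjusted p. The 6 receptor genes had a median of 0.50. Ifngr1 and Ifngr2, the chains of the interferon gamma receptor, differed by 0.63 and 0.64 (limma adjusted p = 0.238 and 0.350), Il10rb, a chain of the lambda receptor, by 0.59 (adjusted p = 0.304) and its partner Ifnlr1 by 0.42 (adjusted p = 0.421). Tbk1, the kinase that activates IRF3, differed by -0.39 (adjusted p = 0.464), and Tlr9, a sensor of DNA in endosomes, by 0.25 (adjusted p = 0.505). Of 9 ligand genes only Ifna1 and Ifnl3 were measured, with differences of 0.16 and -0.0089 (adjusted p = 0.860 and 0.997). Ifnb1, Ifna2, Ifna4, Ifnk, Ifne and Ifng were not well above background, and Ifnl2 was not matched. The 4 genes that act as brakes all had positive differences, of 0.041 to 0.49, and 7 of the 10 measured genes of interferon induction did.

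Markers of the other cells that a skin tumour can hold varied between tumours as well. Keratinocyte markers had positive differences in 6 of 7 cases, with a summed linear level of 2300 to 2760 in the labelled wild-type tumours and 3050 to 3280 in the labelled knockout tumours. The differences were uneven: 0.14 for Krt5, 0.029 for Krt14 and -0.18 for Trp63. They were 0.97 for Krt1, 0.77 for Ivl, 0.56 for Krt10 and 0.53 for Lor. Macrophage markers had positive differences in 3 of 6 cases, with sums of 12.2 to 20.6 and 17.8 to 18.3, neutrophil markers in 4 of 4 (95.5 to 156 and 133 to 170) and fibroblast markers in 5 of 5 (126 to 405 and 270 to 624). The neutrophil sum is almost all 1 probe, Csf3r, which differed by 0.27 (limma adjusted p = 0.653). Endothelial markers had positive differences in 1 of 3 cases (3.02 to 3.87 and 2.32 to 3.32, Tek not well above background). Dendritic cell markers did in 2 of 2, with sums of 1.41 to 1.68 and 1.66 to 2.74, and the defining Xcr1, Clec9a and Zbtb46 were not well above background. Cytotoxic and natural killer cell markers did in 2 of 3 (0.518 to 0.630 and 0.515 to 0.665), with Ncr1 and Klrb1c not well above background, and B-cell markers in 0 of 2 (0.315 to 0.864 and 0.355 to 0.414), with Cd79a and Ms4a1 not well above background. Of the markers of plasmacytoid dendritic cells, known as strong producers of type I interferon, 1 of 3 had a positive difference and Spib was not well above background, with sums of 113 to 192 and 45.8 to 112. That sum is almost all 1 Siglech probe, the only 1 of 3 for that gene to pass the filter. It differed by -1.14 (limma adjusted p = 0.310), while Ccr9 differed by 0.98 with every labelled knockout tumour above (limma adjusted p = 0.199). Whether the Siglech probe follows the number of these cells was not tested. The part of any of these cell types in the values of the interferon-stimulated genes was not tested.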

How the data were processed

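The members and lists were chosen with earlier results of these data known. Per the file headers, the deposited spot values are intensity, not on a log scale; the submitters' processing notes name Agilent Feature Extraction 10.7.1.1, and the processed signal, already background-corrected, was used. From 0.2 ug of RNA, labelled with Cy3, each array gave 59305 non-control spots, of which 54.24% to 59.38% were well above background, and 68 to 184 outlier spots were left out. The number of arrays limits the precision.

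Spots of a probe were averaged, giving 56605 probes. Values were log2 signals minus the array's 75th percentile. A probe was kept if all 3 arrays of a genotype label showed it well above background, and the brightest probe stood for a gene. Names came from RefSeq through accession (33895 probes), symbol (9464) or synonym (489), otherwise from the file (12757). Probe coordinates are mm9, per the file headers. All 6 arrays entered 1 fit (R 4.3.3, limma 3.58.1, lmFit and eBayes, two-sided), with Benjamini-Hochberg adjustment over 19742 features. The fit was tested on simulated data. Gene lists were described by counts and medians, with no list test.

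Values on every array are given for measured antiviral and GTPase members, for others with an unadjusted p under 0.05 and for members opposite to the median. The rest are given by differences, and pathway genes by the 6 smallest p; 1 item of the pathway list is not reported here. The authors also deposited a table of log2 values, which tracked the arrays' own signals (r of 0.9994 to 1 over probes). Its column medians were 4.9692 to 4.9694, its genes were not centred, and the sources used here do not name the tool. Alternatives were normexp (offset 50), quantile normalization, median centring, other probe filters, the mean over probes, trended and robust eBayes, array weights, that table, 1 slide position number or the replicate number as a block, the other position number as a linear term (added after seeing the data), and leaving out each tumour.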

Additional observations from a re-analysis of the deposited data

How the results depend on the processing

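In every alternative run, 0 listed genes passed an adjusted p of 0.05 by limma. The count at an unadjusted p under 0.05 was 13 to 19 against 17 under other settings, and 9 to 17 when a tumour was left out. The labels share replicate numbers, but deviations of same-numbered tumours correlated at 0.062, 0.257 and 0.143 over features, not all above 0.1, so the numbers were not taken as pairs. With the replicate block the count was 17, the median difference 0.69, the antiviral median 1.13, the GTPase median 0.47 and their contrast 0.66. The antiviral median was 0.51 with normexp. With the slide position number that follows the label in part as a linear term, chosen after seeing the data, the count was 13, the antiviral median 1.97 and the GTPase median 1.58. Of 682 values of single genes under alternatives, 590 kept their direction and side of an unadjusted p of 0.05, 53 rose above it, 18 went below it and 21 changed sign.

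Sign changes came with the position number that does not follow the label (2, 1, 2 and 1, 1, 2) as a block for Trim25 (0.19), Ifi204 (0.0081), Gbp5 (0.13), Rsad2 (0.092) and Gbp4 (-0.096), with probes of a gene averaged for Trim25 (0.28) and Gbp5 (0.22), with array weights for Rsad2 (0.018), and with the linear term for Ifi27l2a (0.70) and Trim21 (-0.0025). With a tumour left out the difference ran from -0.73 to 0.15 for Trim25, from -1.12 to 0.29 for Ifi204, from -0.27 to 0.14 for Gbp5, from -0.24 to 0.64 for Gbp3, from -0.48 to 0.39 for Rsad2, from -0.055 to 1.05 for Ifit3 and from -0.0056 to 0.85 for Gbp4. The member median was 0.46 without labelled knockout tumour 1. The cause was not tested. Genes with every labelled knockout tumour above numbered 13 with median centring. With no filter on dim probes the median of all features was 0.19 and 32.3% of features had every labelled knockout tumour above. Signals near background limit the values of Mx1, Mx2 and the 7 genes left out.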
